A study of Homo sapiens with 6 samples.

Results

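The GREB1 locus is described here by its chromatin compartments in T47D cells, an established estrogen receptor-positive breast cancer line. GREB1 (ENSG00000196208.14_11) lies on the plus strand of chromosome 2 at chr2:11622467-11782914 (hg19), and it overlaps 2 bins of 100 Kb. The bin at chr2:11600001-11700000 holds 77534 bases of the gene, its annotated start included, and is called the start bin. The bin at chr2:11700001-11800000 holds the other 82914 bases. With 20 bins on either side the locus comprised 42 bins (chr2:9600001-13800000), all with a score in all 6 libraries, of 27898 such bins among 30376 bins of the genome. The locus was selected on its measured scores, chosen by the lower score of GREB1 in tamoxifen-resistant cells, so that the difference at the GREB1 bins is given as a description and supports nothing by itself.

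After 72 h of hormone starvation, parental T47D cells were harvested without treatment (T0) or 1, 4, 16 and 24 h after 100 nM β-estradiol (E2) was added (T1, T4, T16 and T24). The sixth library came from tamoxifen-resistant T47D cells (TamR), which the sample labels call untreated and which the study's methods describe as kept in charcoal-stripped serum with 100 nM tamoxifen. TamR therefore differs from T0 in cell line history, medium and drug at once, and these cannot be told apart. All libraries were made by tethered chromatin capture (TCC), which, like Hi-C, counts contacts between pairs of genomic regions, with the ligation carried out on chromatin fixed to a bead. Each condition had 1 library, so no difference has a replicate check and no test was made. No expression was measured in the files, so the identity of the cells could not be checked against marker genes.

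Chromatin contacts divide the genome into compartment A, which is gene-rich and active, and compartment B, which is inactive and often lies at the nuclear periphery. The deposited value of a bin is the first eigenvector of the interchromosomal contact matrix. It is positive in A and negative in B, and it is called the score and given here multiplied by 1000. GREB1 is a chromatin-bound partner of estrogen receptor α and one of the genes that estrogen induces earliest in breast cancer cells. The receptor binds estrogen response elements, 2 half-sites in opposite orientation separated by 3 bases, and tamoxifen competes with estrogen for the same receptor.

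The start bin holds 3 perfect matches to this element, GGTCA and TGACC separated by 3 bases, and they are printed because they lie in the bin with the lowest difference between TamR and T0 in the locus. All are on chromosome 2 of GRCh37, plus strand, and read the same half-sites on the minus strand. Capitals mark the element. ERE1 lies at chr2:11653028-11653057, ERE2 at chr2:11664718-11664747 and ERE3 at chr2:11672652-11672681. ERE1 to ERE3 lie in an intron of the transcript that begins at the annotated start of GREB1, and no annotated exon overlaps them. They lie 21.1, 9.45 and 1.51 Kb upstream of chr2:11674171, the start of the transcript with the longest span. The other 2 matches of the locus are ERE4 at chr2:12179630-12179659, in an intron of the long noncoding RNA gene MIR3681HG (chr2:11974052-12843039), and ERE5 at chr2:13492625-13492654, in no annotated gene.
ERE1: gataatcaGGTCAAAATGACCttctttcag
ERE2: tctcaaaaGGTCATCATGACCttattgtct
ERE3: ggcaactgGGTCATTCTGACCtagaagcaa
ERE4: atttgtctGGTCATTTTGACCattacatga
ERE5: accatgttGGTCAGGCTGACCtcaaactcc

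Such a perfect match occurred in 7.17% of the scored bins, and 10 of 27898 bins (0.0358%) held at least 3. The 20 bins before GREB1 held none and the 20 bins after it held 2. A match describes letters only. Binding of the receptor was not measured in the files used here.

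The TamR library stood apart from the others across the genome. The correlation of its scores with T0 over the 27898 scored bins, which share contacts and are no replicates, was 0.894, against 0.985 to 0.994 for the 4 E2 libraries. As every result on resistance rests on this library, none can be given without it. The scores are scaled within each library, with sums of squares of 0.998 to 0.999 before multiplication, so that sizes compare between libraries only with that limit. Between 2404 and 2422 bins per library had no score. The range of the 5 parental scores, used here as a measure of spread that includes the E2 course, had a median of 1.08 over all scored bins. Contact counts are not part of the tables used, and how deeply each library was sequenced cannot be read from them.

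In the 5 parental libraries GREB1 lay in compartment A, and in TamR both of its bins had a score just below 0. The start bin scored 5.10 at T0, 5.01 at T1, 5.54 at T4, 5.36 at T16, 4.56 at T24 and -0.33 in TamR. The TamR score lay 4.89 below the lowest parental score, while the 5 parental scores spanned 0.98. The second bin scored 3.18, 3.51, 4.17, 4.08 and 3.10 at T0, T1, T4, T16 and T24, and -0.95 in TamR. Its gap to the lowest parental score was 4.05 and its parental range 1.07. TamR and the parental libraries did not overlap in either bin, and TamR lay below all 5 parental scores in 43.6% of all scored bins. Averaged over the bases of the gene, the score was 4.11 at T0, between 3.81 and 4.83 at the E2 time points and -0.65 in TamR.

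Ranked within each library, which does not depend on the scale of the scores, the start bin stood between the percentiles 78.0 and 80.8 of all scored bins in the parental libraries and at 50.6 in TamR. The second bin stood between 70.0 and 74.7 in the parental libraries and at 47.05 in TamR. In TamR both bins thus stood in the middle of the ranking and not at its lower end. The difference TamR minus T0 was -5.43 in the start bin, its percentile among all scored bins being 2.10, with 584 bins lower. It was -4.14 in the second bin, percentile 4.80.

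The change of sign depended on where the border between A and B was set. With the border at 0, the start bin, the second bin and the first bin after GREB1 were in A at T0 and in B in TamR, 3 of 42 bins, against 6.27% of all scored bins. Of the 23 bins of the locus that were positive at T0, these 3 were negative in TamR, against 13.6% of the positive bins of the genome. Both shares were close to those of the genome and are no result about the locus. With the median of each library as the border, the start bin stayed in A in TamR, 0.10 above the median. The second bin lay 0.53 below it, and 3 bins again changed compartment, 2 of them the same. As GREB1 was chosen by its lower score in TamR, the values that follow are a description and no support. Other bins at the level of the start bin rarely went as low. Among the 1201 bins with a T0 score within 0.5 of it, 2.33% were negative in TamR. The median TamR score of those bins was 4.45, with quartiles of 3.15 and 5.89, and 1.75% of them scored as low as the start bin of GREB1 or lower.

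**Figure D1:**
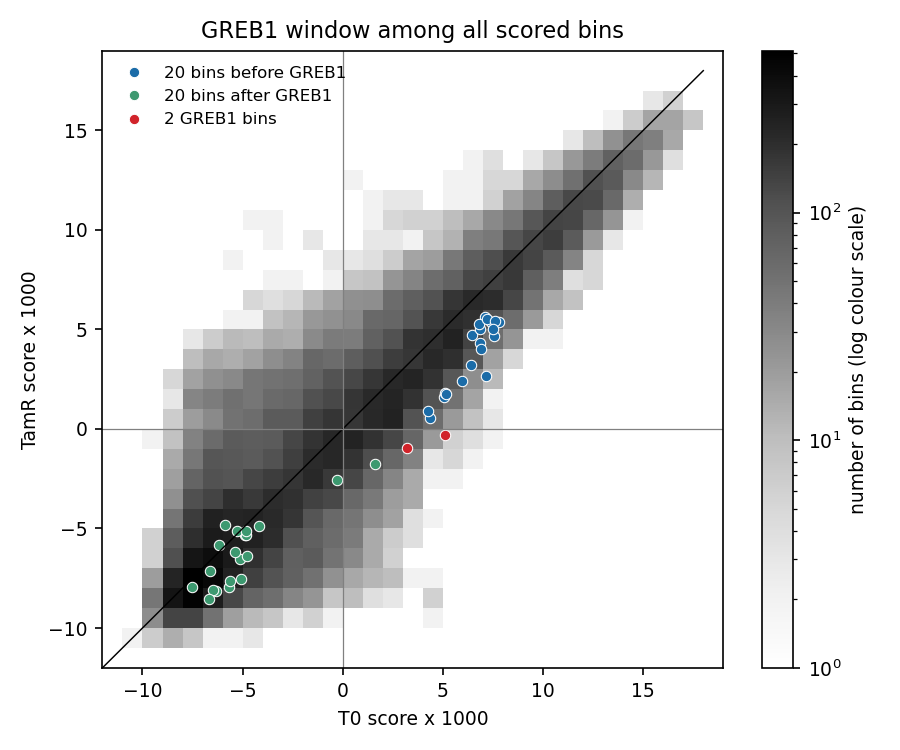
T0 score (x axis) against TamR score (y axis), both multiplied by 1000, with the number of bins of the genome in each square of 1 by 1 as grey shade on a log colour scale, the line of equal scores in black, and the bins of the locus as coloured points. The 20 bins before GREB1 (blue) and the 2 GREB1 bins (red) lie below the line of equal scores, and the GREB1 bins lie just below a TamR score of 0.

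To set the extent of the lower scores, a bin was counted as dropped where TamR lay below the lowest of the 5 parental scores by more than the range of those 5. This held in 28 of the 42 bins, against 23.0% of all scored bins, and the opposite rise held in 0 of 42, against 21.8%. A gap of more than 2 parental ranges was found in 20 bins, against 12.4% of all bins, and TamR was below all 5 parental scores in 39, against 43.6%. Since the locus was chosen for a lower score in TamR and neighbouring bins share contacts, these counts describe the locus and are no independent support. On chromosome 2 as a whole 28.9% of 2351 bins had dropped.

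The dropped bins formed an unbroken run of 17 bins around GREB1, chr2:10300001-12000000, with 13 bins before the gene and 2 after it. Within the run the difference TamR minus T0 lay between -5.43 and -1.71 with a median of -3.33, and its lowest value was that of the start bin of GREB1. Most of the run thus lay upstream of the gene, over bins that stayed in A. Of 1829 such runs in the genome, 59 (3.23%) were at least as long, the median run being 1 bin and the longest 116. The edges were set by the threshold. In the bin just before the run the gap was 1.56 and the parental range 1.61, and the difference from T0 was -1.56. In the bin just after the run, chr2:12000001-12100000, TamR lay only 0.01 below the lowest parental score, with a parental range of 1.02, and the difference was -0.71. Some bins upstream of the run, separated from it by bins that missed the rule, had dropped as well. Downstream the difference became smaller from bin to bin, from -5.43 in the start bin through -4.14, -3.36 and -2.29 to -0.71 outside the run.

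**Figure D2:**
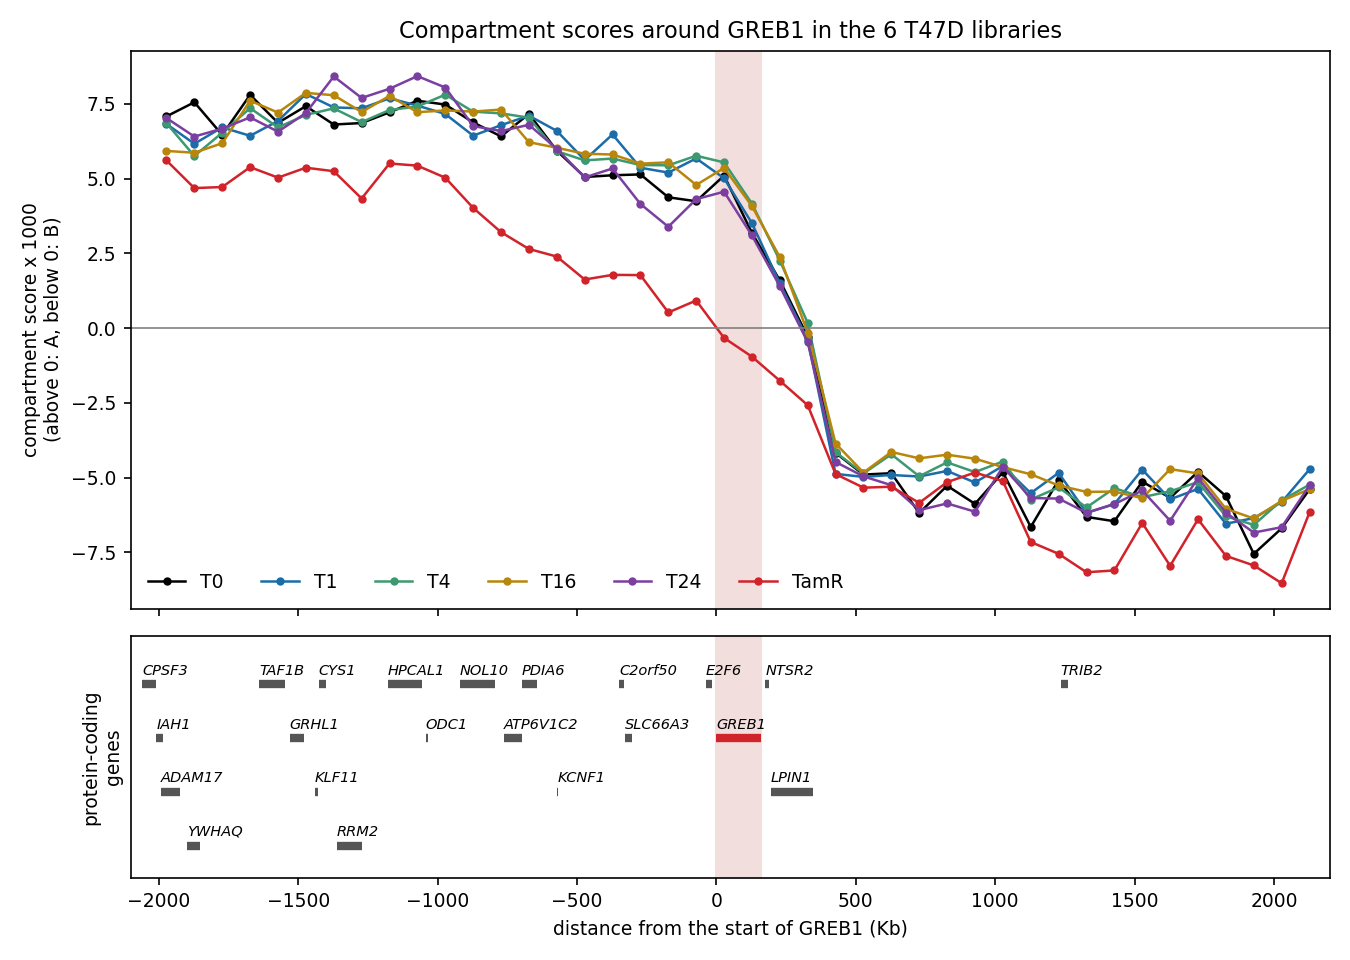
Compartment score multiplied by 1000 (y axis) of the 42 bins in the 6 libraries against the distance of the bin centre from the start of GREB1 in Kb, with the protein-coding genes named in the text drawn to scale below and GREB1 shaded. The parental lines (T0, T1, T4, T16, T24) run together in A up to the gene and fall to B behind it. The TamR line (red) lies below them in all 20 bins before the gene, and farther below near it. It meets them in B and lies below them again in the last 10 bins.

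The difference had a gradient along the locus. In the first 10 bins its median was -1.95 and in the 10 bins just before GREB1 it was -3.35. All 20 bins before GREB1 scored lower in TamR than at T0, 16 of them past the rule, and all 20 were positive in every library. From the third bin behind the gene the difference was small, and it then widened again. In the 8 bins of chr2:12000001-12800000 the median difference was -0.37 and 1 bin had dropped, by a difference of -0.44. In the last 10 bins, chr2:12800001-13800000, the median was -1.74 and 7 had dropped. Over the 20 bins after GREB1, 17 were lower in TamR and 10 had dropped, with a median of -1.08, and 18 of the 20 were negative in every library.

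**Figure D3:**
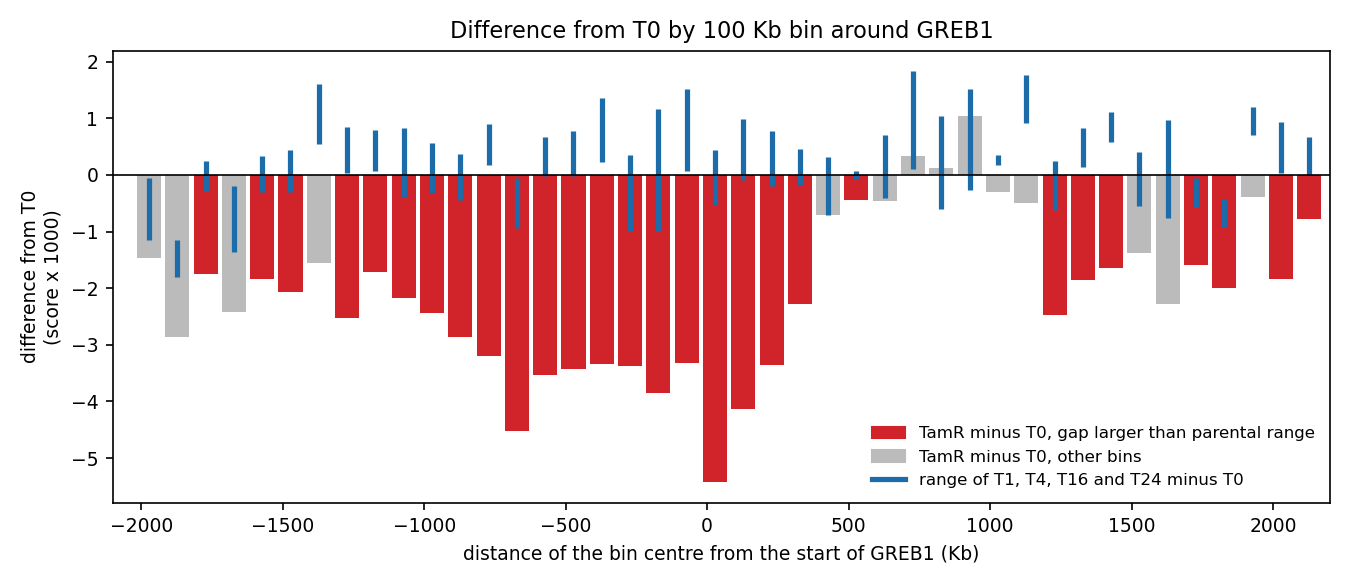
Difference from T0 in score multiplied by 1000 (y axis) by distance of the bin centre from the start of GREB1 in Kb (x axis). Bars give TamR minus T0, red where the gap to the lowest parental score exceeded the parental range, and blue lines give the range of T1, T4, T16 and T24 minus T0, and the bar at the start of GREB1, -5.43, is the lowest.

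The border between A and B beside GREB1 was located by a straight line between the centres of the last positive and the first negative bin. At T0 it lay at chr2:11934698, 152 Kb after the end of the gene. In the parental libraries together it lay 142 to 171 Kb after that end. In TamR it lay at chr2:11623977, 1.51 Kb after the annotated start of GREB1 and 311 Kb upstream of its place at T0. A bin is 100 Kb wide, so the position inside a bin is an interpolation. In whole bins the border moved by 3 toward A in TamR, by 1 toward B at T4 and by 0 at T1, T16 and T24. Over the 496 borders of T0 with 5 bins of 1 sign on each side, 111 (22.4%) moved at least 3 bins toward A in TamR and 128 moved at least 3 bins toward B. In the E2 libraries 7, 5, 10 and 54 of these borders moved as far toward A, in order of time. A move of 3 bins was thus common in the TamR library.

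The steepest fall between neighbouring bins of the locus did not move. In all 6 libraries it lay at position 12000000 of chromosome 2, 217 Kb after the end of GREB1 and inside MIR3681HG. The step there was -3.88 in the T0 library, -4.49, -4.32, -3.71 and -4.01 in the E2 libraries in order of time, and -2.30 in TamR. The bin before the step, chr2:11900001-12000000, scored -0.29 at T0, -0.38, 0.18, -0.15 and -0.47 at the E2 time points and -2.58 in TamR. The bin behind the step scored -4.17 at T0, -4.87, -4.15, -3.86 and -4.47 at the E2 time points and -4.88 in TamR. TamR was thus apart from the parental libraries before the step and beside them behind it.

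The E2 course of GREB1 was flat by comparison. In the start bin T1 differed from T0 by -0.09, T4 by 0.44, T16 by 0.26 and T24 by -0.54. In the second bin the differences, in the same order, were 0.33, 0.98, 0.90 and -0.08. Over all scored bins the median absolute differences were 0.44, 0.42, 0.47 and 0.67. The start bin stayed near or below that size, and the second bin exceeded it at T4 and T16, where its differences stood at the percentiles 92.8 and 88.9 of all bins. The sign at T1 in the start bin and at T24 in the second bin changed with other scalings of the scores, so no direction is given for these. Both bins were positive at every time point.

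**Figure D4:**
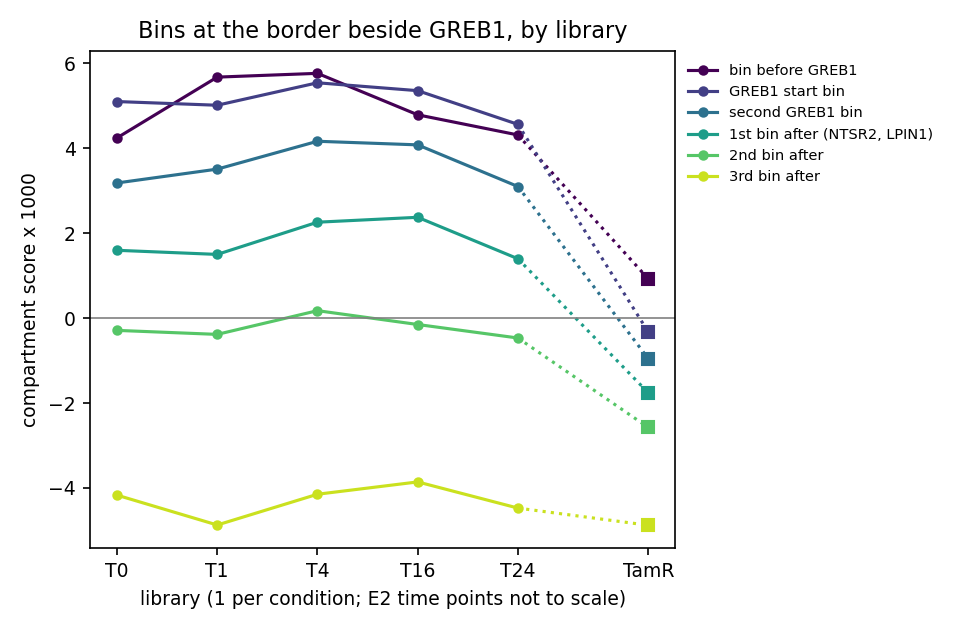
Compartment score multiplied by 1000 (y axis) of the bin before GREB1, the start bin, the second bin and the first 3 bins after GREB1, in the 5 parental libraries (circles) and TamR (squares), 1 library each, with the time points not to scale. The TamR values of all but the last of these bins lie below the lowest parental value by more than the range of the 5 parental values, which is widest in the bin before GREB1.

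The bin just before GREB1 varied more over E2. It scored 4.25 at T0, 5.68 at T1, 5.77 at T4, 4.79 at T16, 4.31 at T24 and 0.93 in TamR. It was higher at the early time points and back near T0 at T24. The first bin after GREB1 scored 1.6, 1.5, 2.26, 2.38 and 1.4 in the parental libraries and -1.76 in TamR. The second bin after it was the only one of the 42 that changed sign over E2, at T4. The 3 adjacent bins of the locus with the highest mean difference between T16 and T0, picked after their values were seen, lay in B at chr2:12300001-12600000 inside MIR3681HG. Their mean score was -5.78 at T0, -4.97 at T1, -4.75 at T4, -4.32 at T16, -6.03 at T24 and -5.27 in TamR. The mean was closer to 0 at each time point up to T16 and back at the T0 level at T24, and all values stayed in B.

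The protein-coding neighbours were read at the bin of their annotated start. The locus held 22 such genes, GREB1 included, and a further gene, CPSF3, reaches into it from the bin before. Of the 22, 16 were in dropped bins, against 19.9% of 19670 protein-coding genes, and 4 changed from A to B, against 4.53%. All but TRIB2 were positive at T0, while the 4.53% includes genes that were in B at T0. As the locus was chosen by the lower score of GREB1 in TamR, these counts are a description and no support. Genes in a shared bin have the same score and are not independent. The 4 that changed, by the bin of their start and with the border at 0, were E2F6, GREB1, NTSR2 and LPIN1. With the median of each library as the border, the start bin of GREB1, which E2F6 shares, stayed in A in TamR. E2F6, a repressive member of the E2F family of transcription factors, is transcribed away from GREB1 with its start 16.2 Kb before it and shares the start bin and its scores. NTSR2, a neurotensin receptor, and LPIN1, a phosphatidate phosphatase of lipid synthesis, share the first bin after GREB1, with 1.60 at T0 and -1.76 in TamR.

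The genes described next, upstream of E2F6, stayed in A with lower scores. SLC66A3 and C2orf50 share a bin that scored 5.11 at T0 and 1.78 in TamR, with 5.11 as the lowest parental score. KCNF1, a potassium channel subunit, scored 5.94 at T0 and 2.40 in TamR, with a parental range of 0.68. PDIA6, a disulfide isomerase of the endoplasmic reticulum, had the lowest difference outside the GREB1 bins, -4.52, from 7.17 at T0 to 2.65 in TamR. NOL10, a nucleolar protein, and ATP6V1C2, a proton pump subunit, share a bin that scored 6.41 at T0 and 3.21 in TamR. TamR lay below every parental library at each of these genes, as it did in 43.6% of all scored bins.

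Farther upstream the differences were smaller. ODC1, the rate-limiting enzyme of polyamine synthesis, scored 7.61 at T0 and 5.44 in TamR, and HPCAL1, a neuronal calcium sensor, scored 7.22 and 5.51. KLF11, a Krüppel-like transcription factor, scored 7.43 and 5.37, and GRHL1, an epithelial transcription factor of the grainyhead family, scored 6.87 and 5.03. These 4 were in dropped bins. The 6 genes that were not were RRM2, the small subunit of ribonucleotide reductase, and CYS1, a protein of cilia, which share the bin just outside the run, with 6.81 at T0 and 5.25 in TamR, and TAF1B, YWHAQ, ADAM17 and IAH1. For the last 4 the TamR score lay 0.32 to 1.07 below the lowest parental score, less than the parental range in each case. Downstream of LPIN1 the only protein-coding start of the locus was that of TRIB2, a pseudokinase, in B throughout. It scored -5.08 at T0, between -5.70 and -4.84 over the parental libraries and -7.55 in TamR, a dropped bin 1235 Kb from the start of GREB1.

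The bases upstream of the 3 neighbours that, with the border at 0, changed compartment with GREB1 are printed to show the sequence at their starts. They are the 250 bases before a RefSeq gene start (GRCh38.p14), placed on GRCh37 by an exact match, 5′ to 3′ on the strand of the gene. RefSeq promoters were matched for 19 of 22 genes looked up. CPSF3, which starts outside the locus, was among the 19, and GREB1 was not. Capitals mark a half-site of the estrogen response element, GGTCA or TGACC on either strand. E2F6 is at chr2:11606288-11606537 (minus strand), NTSR2 at chr2:11810322-11810571 (minus strand) and LPIN1, at the first of its starts, at chr2:11817420-11817669 (plus strand).
E2F6: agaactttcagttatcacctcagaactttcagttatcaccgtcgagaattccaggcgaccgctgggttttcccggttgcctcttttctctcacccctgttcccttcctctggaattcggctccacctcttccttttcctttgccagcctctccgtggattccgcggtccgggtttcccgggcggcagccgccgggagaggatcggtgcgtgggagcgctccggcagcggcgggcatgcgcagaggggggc
NTSR2: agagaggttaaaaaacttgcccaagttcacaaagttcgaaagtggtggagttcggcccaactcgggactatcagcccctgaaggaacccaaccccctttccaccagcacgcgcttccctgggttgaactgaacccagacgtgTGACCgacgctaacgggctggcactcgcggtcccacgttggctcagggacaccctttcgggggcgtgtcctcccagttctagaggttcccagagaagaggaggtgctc
LPIN1: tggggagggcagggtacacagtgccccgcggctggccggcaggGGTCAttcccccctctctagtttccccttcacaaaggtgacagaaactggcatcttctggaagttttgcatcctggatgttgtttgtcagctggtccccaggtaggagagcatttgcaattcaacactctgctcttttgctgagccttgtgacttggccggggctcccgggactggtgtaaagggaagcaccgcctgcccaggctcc

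The stretch of E2F6 held 0 half-sites, and those of NTSR2 and LPIN1 held 1 each, against at least 1 in 32.6% of 35116 RefSeq promoters of this length. CpG dinucleotides numbered 21, 14 and 6 in these 3, the median of all being 11. The other LPIN1 stretches, at chr2:11864191-11864440 and chr2:11886508-11886757, held 0 half-sites, with 5 and 22 CpG dinucleotides. These are letters in a window and say nothing on binding.

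The GC content was 44.8% in the start bin and 48.9% in the second, with a median of 47.8% in the 20 bins before GREB1 and 39.6% in the 20 bins after it, the genome median being 39.8%. HindIII sites, at which TCC cuts the genome, numbered 24 and 20 in the GREB1 bins and 15 to 43 over the locus, with a genome median of 29.

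GREB1 was set beside other genes of the estrogen response, from a list of 35 genes known to be induced by estrogen in breast cancer cells. Some of the 35 genes share a start bin and its score, none of them in a dropped bin. The start bins of 11 of the 35 had dropped in TamR, against the 19.9% of all protein-coding genes. A rise was found in 2, against 21.8% of all scored bins, and the share of rises over protein-coding genes was not taken. Of the 35, 33 were positive at T0. A change from A to B was found in 6, against 4.53% of all protein-coding genes, those in B at T0 included. Among all bins positive at T0 the share was 13.6%. Of these 6, 3 lay near the border at T0, with scores of 0.17, 0.16 and 0.02. The median difference from T0 was -0.92, and over all protein-coding genes it was -0.38. Genes in dropped bins, in genome order, were CELSR2, PDZK1, SIAH2, KCNK5, EGR3, MYC, PRSS23, PGR, BCL2, CCN5 and NRIP1. PGR, the progesterone receptor, and SIAH2, a ubiquitin ligase, were the only ones with a lower difference than GREB1. PGR scored 0.17 at T0 and -6.92 in TamR, and SIAH2 scored 5.10 and -0.93. PDZK1, a scaffold protein, scored 8.87 and 3.87 and stayed in A. TFF1, a secreted trefoil peptide and a classic estrogen target, was not in a dropped bin, with 9.82 at T0, at most 10.8 in the parental libraries and 11.2 in TamR. AREG, a ligand of the EGF receptor, had a higher score in TamR past the rule, 5.49 against -0.36 at T0, as had RBBP8, a DNA repair factor.

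Of 12 genes for the estrogen receptor and its cofactors, 3 were in dropped bins. That share is near the 19.9% of all protein-coding genes and is no result about these genes. Of the 12, 1 had risen, against 21.8% of all scored bins, again with no share over protein-coding genes. The median difference was -1.29, against -0.38 over all protein-coding genes. ESR1, which encodes estrogen receptor α, scored 4.90 at T0, 4.03, 3.94, 3.68 and 3.26 at T1, T4, T16 and T24, and -0.05 in TamR. GATA3, a luminal transcription factor, scored 2.12 at T0 and -0.79 in TamR, and the coactivator gene NCOA2 scored 1.89 and -1.64. These 3 of the 12 changed from A to B with the border at 0, against 4.53% of all protein-coding genes. Of the 12, 11 were positive at T0, while the 4.53% includes genes in B at T0. Among all bins positive at T0 the share was 13.6%. The median of the TamR library, -0.43, lies below the score of ESR1. The gene that had risen was NCOA3, a coactivator amplified in some breast cancers, with 6.58 at T0 and 9.60 in TamR. The paralog GREB1L on chromosome 18 scored 3.72 at T0, between 3.72 and 4.03 in the parental libraries and 3.67 in TamR, 0.04 below the lowest. The difference of GREB1L from T0, -0.04, stood at percentile 54.3 of all scored bins. GREB1 was chosen by its lower score in TamR, so the contrast with its paralog is a description, with no test possible.

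**Figure D5:**
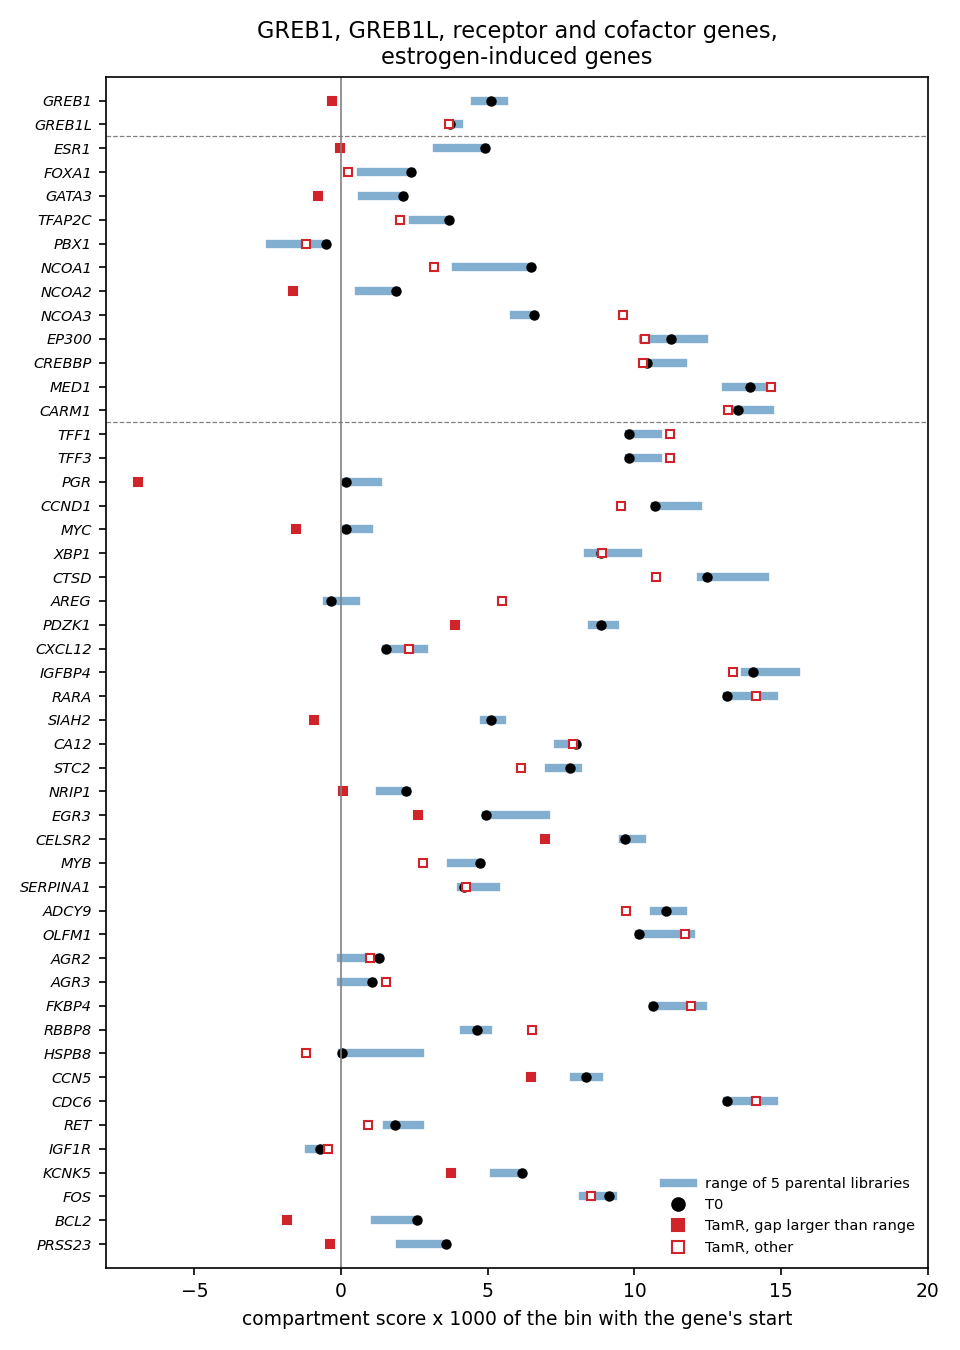
Compartment score multiplied by 1000 (x axis) of the bin with each gene's start, with the range of the 5 parental libraries as a blue bar, T0 as a black circle and TamR as a red square, filled where TamR lay below the lowest parental score by more than that range. From the top, GREB1 and GREB1L, the 12 receptor and cofactor genes and the 35 estrogen-induced genes, with GREB1 at -0.33 and PGR farthest to the left at -6.92 in TamR.

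The genes outside the locus with the pattern most like that of GREB1 were taken as those with the smallest Euclidean distance over the 6 scores, 1 gene per bin, among 10568 bins that hold a protein-coding start. They were ERICH6 (distance 0.85), TACC1 (1.08), AFAP1L2 (1.10), SERP1 (1.21) and FGFR1 (1.21). The bin of ERICH6 on chromosome 3 also holds the start of SIAH2, and SERP1 starts in the bin before it. TACC1 and FGFR1 lie near each other on chromosome 8, and FGFR1 scored 4.98 at T0, between 4.95 and 5.20 over the parental libraries and 0.48 in TamR. When likeness was measured on the 5 differences from T0 in place of the scores, none of these 5 genes remained.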

How the data were processed

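TCC libraries of 6 conditions were used, 1 per condition. The authors deposited 1 score per 100 Kb bin and library. The study's methods name bowtie2 (iterative mapping, hg19) and HiCLib, with which binned contacts were balanced iteratively, only interchromosomal contacts were kept and the first eigenvector was taken. Whether replicate T47D cultures were pooled is not stated in the sources used here. The eigenvector has no unit and is scaled by library, so a score ranks a bin within its library. A score of 0 marks a bin without a value.

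From the deposited scores, multiplied by 1000, bins scored in all 6 libraries were compared. A drop or rise was called where TamR lay outside the 5 parental scores by more than their range, and percentiles were taken over all scored bins. Without replicates or contact counts neither a test nor a counting interval was possible. Genes came from GENCODE v44 mapped to GRCh37, whose 23 chromosome lengths equal the ends of the last bins. GREB1, GREB1L, the neighbours, list genes in dropped bins and the 5 nearest patterns are named by rule, except 1 neighbour that is counted but not reported here, and PDZK1, TFF1, AREG, RBBP8 and NCOA3 were also named with their values seen. The locus, the lists and the rules were chosen with earlier results of these data known. Alternatives changed the scaling, border, reference, rule, bin size and libraries. The rules were tested on simulated tracks. Python 3.11.15, numpy 2.4.6 and pandas 2.3.3 were used.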

Additional observations from a re-analysis of the deposited data

How the results depend on the processing

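No paired analysis was possible because a single library stands for every condition. The difference TamR minus T0 in the start bin of GREB1 was -5.43. It was -4.94 with the median of chromosome 2 subtracted, -4.29 as a running mean of 3 bins, -5.87 against T4, -4.89 against T24, -3.71 in 500 Kb bins and -4.76 as a mean weighted by the bases of the gene. In the second bin -4.14 became -5.12 against T4 and -5.04 against T16. The run of 17 dropped bins was 5 bins with a gap of more than 2 parental ranges, 30 with any TamR score below all parental scores, 2 with the lowest 5% of differences and 3 with a change from A to B, and 17 to 20 with a parental library left out. Of the locus, 28 bins became 3 under both of the last rules and 29 to 33 with a library left out, and the counts were 15 of 22 bins with 10 bins on either side and 47 of 82 with 40. The 11 estrogen-induced genes became 6, 19, 4 and 6 under the same 4 rules, and 11 to 14 with a library left out. The 3 receptor and cofactor genes became 1, 8 and 1 under the first 3 rules, and 3 to 4 with a library left out. Over E2, T1 minus T0 in the start bin, -0.09, was 0.18 after matching quantiles and 0.56 as a running mean, T4 minus T0 in the start bin was 0.98 as a running mean, and after matching quantiles T24 minus T0 was -0.078 in the start bin and 0.36 in the second bin. Of the 5 genes most like GREB1, 0 were shared when differences from T0 were used. The cause of these shifts was not tested. The other 66 alternative values kept their direction. Differences moved by less than the standard deviation of the 5 parental scores of the bin, and counts stayed within a factor of 1.5. The background of bins at the level of GREB1 and the shift of all borders were chosen after seeing the data. Depth limits every score by an unknown amount.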
